A study of Mus musculus with 13 samples.

Results

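A set of 38 genes of glucose metabolism and of the low-oxygen response was followed across mouse embryonic stem cells (ESC) and day 7 embryoid bodies. The set was defined as the probe sets whose annotation names a single symbol out of those 38. By that rule 75 of 45037 probe sets belonged to it, and they covered 34 of the 18193 genes measured through such probe sets. Every one of the 34 genes and 73 of the 75 probe sets passed the filter on dim signal and were tested, 2 of the 73 through signal above the array median on ESC arrays alone. For Gapdh and Bnip3l the probe sets were annotated to several symbols, and none was listed for Gpi1 or Eno1, so these 4 genes were not analysed here.

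Total RNA had been hybridised to Affymetrix Mouse430_2 arrays, 1 array per sample and 13 in all. The cells carried StellaGFP, a green fluorescent reporter of Stella, the maternal and germ cell factor made by Dppa3, and so did the cells of every group, controls included. Of the 5 groups, 3 were ESC: 3 arrays of sorted Stella-negative cells, 2 of sorted Stella-positive cells and 2 of cells that were not sorted. The other groups came from day 7 embryoid bodies and held 2 arrays of Stella-negative and 4 arrays of Stella-positive cells, which the labels call in vitro PGCs. Sorting was by fluorescence, so each positive group is defined by a reporter and not by the endogenous protein. The labels give no medium, oxygen level, clone or pooling, and they do not say whether replicate arrays are from separate cultures, so each p-value sets a difference against array-to-array spread that may be technical.

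Glycolysis splits glucose into pyruvate in the cytosol. Hexokinases trap glucose after its uptake by the GLUT transporters, phosphofructokinase sets the pace, and lactate dehydrogenase turns pyruvate into lactate, which leaves through monocarboxylate transporters. Under low oxygen the factor HIF-1 raises transcription of most of these enzymes and of a group of stress genes, while the prolyl hydroxylases of the Egln family mark its alpha subunit for destruction when oxygen is present. Mouse ESC are known for a high glycolytic rate.

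The deposited values are MAS5 signal intensities, and each array was scaled to a common trimmed mean of 105 before any comparison. Before scaling, the lowest trimmed mean was 8.48, for Stella-positive day 7 array 4, and the highest 230.0, for an ESC array. The signal of a probe set depends on its own sequence, so levels are compared between arrays and never between genes. All day 7 arrays were hybridised on 1 day and from 1 chip lot, apart from every ESC array, so culture and hybridisation day cannot be told apart. RNA quality also moved with culture. The 3′/5′ signal ratio of the actin control, which rises as RNA degrades or is incompletely copied, was between 1.12 and 1.23 on the ESC arrays. It was 5.48 and 5.85 in Stella-negative day 7 cells and 2.04, 2.17, 4.89 and 5.16 in Stella-positive day 7 cells.

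The labels were checked against the reporter's own gene. Dppa3 signal was 139, 228 and 245 in Stella-negative ESC against 941 and 1473 in Stella-positive ESC, and 74.6 and 101 against 807, 728, 1078 and 1138 at day 7. The summed signal of 6 pluripotency markers was between 7981 and 13034 in ESC, between 3990 and 4344 in Stella-negative day 7 cells and between 6883 and 10226 in Stella-positive day 7 cells. Each of 9 endoderm markers was above the array median on at least 1 array of each day 7 group, with sums of 22152 and 23822 in the Stella-negative group and 8265, 8436, 590 and 657 in the Stella-positive group, against 150 to 803 in ESC. Stella-positive day 7 arrays 3 and 4 therefore stood apart from arrays 1 and 2, with higher actin ratios and lower endoderm sums. In bulk RNA, fewer cells of a type and less RNA per cell cannot be told apart.

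The first question was how the glycolysis and hypoxia genes stood after 7 days of embryoid body culture. Most of the glycolytic chain was lower at day 7 in both sorted fractions, along with the lactate exporter Slc16a3 and hypoxia genes such as Bnip3, Ankrd37 and Egln3. In Stella-negative cells 16 of 34 genes fell and 3 rose relative to Stella-negative ESC. Among all 14007 genes tested 34.9% were called, 16% lower and 18.9% higher. In Stella-positive cells 18 of 34 fell and 0 rose relative to Stella-positive ESC, where 15.8% of all genes were called, 6.8% lower and 9.02% higher. The median log2 change of the 34 genes was -0.89 in negative and -1.08 in positive cells, beside 0.18 and 0.13 over all genes tested. The members were chosen with earlier results of these data known, so these shares give context and are not a test of the set. Calls here and below are from limma with Benjamini-Hochberg adjustment over 30023 probe sets at 0.05, and log2 changes carry a constant that shrinks those of dim genes. The same 14 genes fell in both fractions: Hk2, Pfkl, Pfkp, Aldoa, Aldoc, Tpi1, Pgam1, Pkm, Ldha, Slc16a3, Bnip3, Ankrd37, Egln3 and Ndrg1. Those that rose in negative cells were Slc16a1, Slc2a3 and Hif1a, and Slc2a3 and Hif1a each had another probe set that fell.

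**Figure D1:**
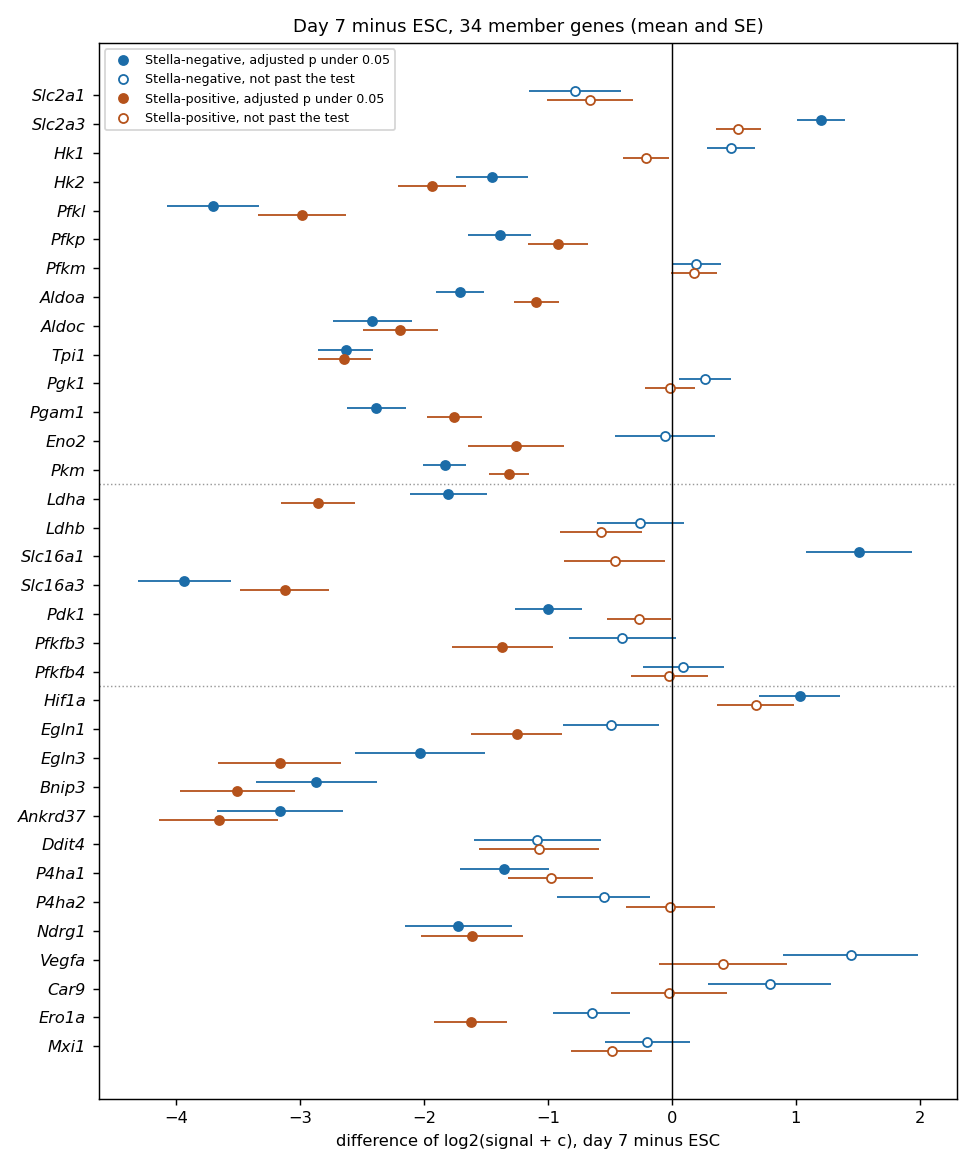
Log2 change at day 7 relative to ESC for the 34 genes, with the Stella-negative and Stella-positive fractions as separate points and standard errors as bars. Zero marks no change. The points of Pfkl, Slc16a3, Ankrd37 and Bnip3 are among the farthest left in both fractions, and Slc16a1, Vegfa, Slc2a3 and Hif1a lie to the right in the negative fraction.

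With the actin ratio as a covariate the counts were 4 lower and 5 higher in negative cells and 5 lower and 1 higher in positive cells. The share of all genes called in fits with this covariate is not given here or below, so these counts have no background beside them. The genes still called lower in both fractions were Aldoc, Tpi1, Pkm and Slc16a3, the last at -3.98 (adjusted p = 0.01) and -3.16 (adjusted p = 0.0158) by limma. Slc16a1 was called higher in both, at 4.54 (adjusted p = 2.36e-05) and 1.53 (adjusted p = 0.0244), and Slc2a3, Ldhb, Vegfa and Mxi1 in negative cells. Without the covariate the Slc16a1 changes were 1.51 in negative and -0.46 in positive cells. Within groups the actin ratio varied mainly among Stella-positive day 7 arrays, with 2.04, 2.17, 4.89 and 5.16 on arrays 1 to 4. The endoderm sums split the same arrays, so no fit with this covariate can tell RNA quality from that split. The part of the endoderm and other cell types in the culture changes was not tested. Without Stella-positive day 7 arrays 3 and 4, 16 of the 18 genes called lower in positive cells kept the call. With each array scaled to a common median the median of all probe sets moved from 0.24 to -0.40 in negative and from 0.16 to -0.33 in positive cells, and the share of calls that were higher moved from 55.1% to 14.7% and from 53% to 9.66%. The members were then called 22 lower and 0 higher, and 20 lower and 0 higher. In all, 10325 and 5921 of 30023 probe sets were called with that scaling.

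Glucose entry was read from 2 transporter genes and 2 hexokinase genes. Hk2, the inducible hexokinase of growing and hypoxic cells, had a signal of 919.9, 1091 and 1037 in Stella-negative, 1207 and 1113 in Stella-positive and 491 and 1130.2 in unsorted ESC. Day 7 Hk2 signal was 345 and 382 in Stella-negative and 364, 381, 247 and 221 in Stella-positive cells. All 6 day 7 values lay below all 7 ESC values, and the change was -1.45 ± 0.29 (SE) in negative cells, adjusted p = 0.00129, and -1.93 ± 0.28 in positive cells, adjusted p = 3.57e-04 (limma). Hk1, the constitutive hexokinase of most tissues, read 334, 290.4 and 266 in Stella-negative, 387 and 329 in Stella-positive and 265 and 223 in unsorted ESC on its brightest probe set. Day 7 Hk1 signal was 391 and 443 in Stella-negative and 314, 318, 306 and 289 in Stella-positive cells. The negative day 7 arrays lay above the negative ESC arrays and the positive day 7 arrays below the positive ESC arrays. The test was not passed in either fraction, although the other Hk1 probe set fell, with log2 changes of -3.09 ± 0.45 and -2.10 ± 0.43. Slc2a1 and Slc2a3 encode GLUT1 and GLUT3, the basal glucose transporter and the high-affinity one. Slc2a1 signal ran from 1346 to 3310.4 in ESC and from 871 to 1794 at day 7 and was not called on the brightest probe set, with log2 changes of -0.78 ± 0.37 and -0.66 ± 0.35. Slc2a3 ran from 4684 to 9319 in ESC and from 7486 to 12740.2 at day 7 on its brightest probe set, and was called higher in negative cells there, 1.21 ± 0.19, adjusted p = 2.06e-04 (limma).

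Phosphofructokinase, the committed step of glycolysis, has liver, platelet and muscle isoforms. The liver isoform Pfkl had 3219, 3078 and 2225 in Stella-negative, 3304 and 2459 in Stella-positive and 760.2 and 1615 in unsorted ESC. Day 7 Pfkl signal was 184 and 229 in Stella-negative and 497, 574, 236 and 222 in Stella-positive cells. No day 7 array reached the lowest ESC array, and Pfkl fell by 3.70 ± 0.37 in negative cells, adjusted p = 3.72e-06, and fell by 2.99 ± 0.35 in positive cells, adjusted p = 9.32e-05 (limma). The platelet isoform Pfkp had 1063, 924 and 884 in Stella-negative, 1378 and 1066 in Stella-positive and 439.8 and 606 in unsorted ESC. Day 7 Pfkp signal was 315 and 406 in Stella-negative and 790.5, 810.2, 592 and 429 in Stella-positive cells. On this brightest probe set Pfkp changed less, by -1.39 ± 0.26 and -0.92 ± 0.24, and the unsorted ESC values overlapped those of Stella-positive day 7 cells. The dimmer Pfkp probe sets fell further, by 2.82 ± 0.49 and 1.92 ± 0.32 in negative and 2.87 ± 0.46 and 1.91 ± 0.30 in positive cells, all called. The muscle isoform Pfkm stayed in a narrow band, with 224, 234 and 220.1 in Stella-negative, 228 and 216 in Stella-positive and 191 and 191 in unsorted ESC. Day 7 Pfkm signal was 282 and 240.2 in Stella-negative and 244, 287, 249 and 236 in Stella-positive cells, and neither change passed the test (0.20 ± 0.20 and 0.18 ± 0.19).

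Pfkfb3 and Pfkfb4 make fructose 2,6-bisphosphate, the activator of phosphofructokinase, and Pfkfb3 is a HIF-1 target. Pfkfb3 signal was 154, 147 and 48.3 in Stella-negative, 88.0 and 62.1 in Stella-positive and 54.9 and 62.6 in unsorted ESC. Day 7 Pfkfb3 signal was 66.9 and 87.7 in Stella-negative and 10.9, 33.1, 21.2 and 28.3 in Stella-positive cells. In positive cells it fell by 1.37 ± 0.41, adjusted p = 0.0313 (limma), and its change in negative cells was -0.40 ± 0.43, which was not called. A dimmer Pfkfb3 probe set changed by -0.01 ± 0.51 in positive and -1.04 ± 0.53 in negative cells and was called in neither. Pfkfb4 was dim throughout, with 91.2, 64.3 and 53.6 in Stella-negative, 46.0 and 44.4 in Stella-positive and 41.5 and 50.7 in unsorted ESC. Day 7 Pfkfb4 signal was 88.5 and 60.6 in Stella-negative and 37.9, 57.6, 46.7 and 37.8 in Stella-positive cells, and the groups overlapped.

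The aldolases split the 6-carbon sugar and triose phosphate isomerase, Tpi1, joins the products into 1 stream. Tpi1 had 2734, 3368 and 2233 in Stella-negative, 2868 and 1995 in Stella-positive and 978 and 1293 in unsorted ESC. Day 7 Tpi1 signal was 425 and 441 in Stella-negative and 369, 459.9, 357 and 323 in Stella-positive cells. Tpi1 fell in both fractions, with changes of -2.63 ± 0.22 in negative cells (adjusted p = 9.09e-07) and -2.64 ± 0.21 in positive cells (adjusted p = 9.78e-06, limma), with no overlap between day 7 and ESC. Aldoa, the aldolase of muscle and most growing cells, had 5759, 5122 and 5464 in Stella-negative, 6575 and 4901 in Stella-positive and 4379 and 4563 in unsorted ESC. Day 7 Aldoa signal was 1563 and 1763 in Stella-negative and 2886, 3161, 2325 and 2344 in Stella-positive cells. All ESC arrays were above all day 7 arrays, with changes of -1.71 ± 0.19 and -1.09 ± 0.18. Aldoc, the brain-type aldolase and a HIF-1 target, had 515, 469.5 and 281 in Stella-negative, 472 and 341 in Stella-positive and 127 and 229 in unsorted ESC. Day 7 Aldoc signal was 79.5 and 57.8 in Stella-negative and 67.2, 64.7, 81.0 and 113 in Stella-positive cells. It fell, with log2 changes of -2.42 ± 0.32 and -2.19 ± 0.30, and the lowest ESC value, from an unsorted array, was just above the highest day 7 value.

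The lower part of the pathway yields ATP and pyruvate. Pgam1, phosphoglycerate mutase, had 4254, 4103 and 4425 in Stella-negative, 5018 and 4013 in Stella-positive and 2341 and 3223 in unsorted ESC. Day 7 Pgam1 signal was 748 and 871 in Stella-negative and 1659, 1607, 1244 and 920.0 in Stella-positive cells. It fell by 2.38 ± 0.24 in negative cells, adjusted p = 3.17e-06, and fell by 1.76 ± 0.22 in positive cells, adjusted p = 1.64e-04 (limma). Pkm, the pyruvate kinase of growing cells, had 5464, 5111 and 5595 in Stella-negative, 6073 and 6545 in Stella-positive and 5656 and 6403 in unsorted ESC. Day 7 Pkm signal was 1345 and 1677 in Stella-negative and 2383, 2671, 2646 and 2435 in Stella-positive cells. Groups by culture did not overlap, and Pkm fell, with log2 changes of -1.83 ± 0.17 and -1.31 ± 0.16. Pgk1, phosphoglycerate kinase, ran from 6054 to 11854 in ESC and from 6591 to 10091 at day 7 on its brightest probe set and was not called. Eno2, the neuronal enolase, was dim, at 24.9 to 94.7 in ESC and 14.7 to 49.1 at day 7, and was called lower in positive cells, -1.26 ± 0.39, adjusted p = 0.0353 (limma).

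At the end of the pathway the lactate genes split. Ldha, the lactate dehydrogenase subunit that favours lactate production, had 6246, 6072 and 6418 in Stella-negative, 7156 and 5780.1 in Stella-positive and 3761 and 6932 in unsorted ESC. Day 7 Ldha signal was 1547 and 2046 in Stella-negative and 1304, 1171, 672 and 584 in Stella-positive cells. Every day 7 value lay below every ESC value, and Ldha fell by 1.81 ± 0.31 in negative cells, adjusted p = 3.99e-04, and fell by 2.85 ± 0.30 in positive cells, adjusted p = 3.13e-05 (limma). Ldhb, the subunit of oxidative tissues such as heart, had 1334, 1243 and 1461 in Stella-negative, 2228 and 2873 in Stella-positive and 1737 and 852 in unsorted ESC. Day 7 Ldhb signal was 1031 and 1225 in Stella-negative and 2500.3, 2623, 1093 and 1158 in Stella-positive cells. Its values overlapped between day 7 and ESC, and the changes were -0.26 ± 0.35 and -0.57 ± 0.33, not called. Within the Stella-positive day 7 group, arrays 1 and 2 read above arrays 3 and 4.

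The lactate carriers went opposite ways in negative cells. Slc16a3, or MCT4, the low-affinity exporter of glycolytic cells and a HIF-1 target, had 1835, 2477 and 966 in Stella-negative, 1509 and 695 in Stella-positive and 290.3 and 609 in unsorted ESC. Day 7 Slc16a3 signal was 105 and 90.2 in Stella-negative and 88.5, 129.8, 100.2 and 119 in Stella-positive cells. It fell by 3.93 ± 0.38 in negative cells, adjusted p = 2.38e-06, and fell by 3.12 ± 0.36 in positive cells, adjusted p = 7.37e-05 (limma), among the largest changes of the set. Slc16a1, or MCT1, which carries lactate in either direction, had 897, 1274 and 978 in Stella-negative, 943 and 855 in Stella-positive and 1091 and 1037 in unsorted ESC. Day 7 Slc16a1 signal was 2959 and 2991 in Stella-negative and 1151, 1179, 468 and 276 in Stella-positive cells. It rose in negative cells by 1.51 ± 0.43, adjusted p = 0.0126, and its change in positive cells was -0.46 ± 0.41, which was not called. Pdk1, a kinase that inhibits pyruvate dehydrogenase and a HIF-1 target, had 1293, 1133 and 989.9 in Stella-negative, 1380.1 and 1092 in Stella-positive and 455 and 1049.5 in unsorted ESC. Day 7 Pdk1 signal was 605 and 521 in Stella-negative and 1169, 1095, 1030.2 and 822 in Stella-positive cells. It fell in negative cells, from 1139 ± 151 (SD, n = 3) to 563 ± 59.6 (SD, n = 2), adjusted p = 0.0101 (limma), and overlapped with ESC in positive cells.

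Of 13 measured hypoxia genes outside the pathway, 5 fell and 1 rose in negative cells and 6 fell in positive cells. Among all genes tested 16% were lower and 18.9% higher in negative cells, and 6.8% lower and 9.02% higher in positive cells. Bnip3, a mitochondrial mitophagy receptor and HIF-1 target, had 2185, 1741 and 877 in Stella-negative, 2152 and 1375 in Stella-positive and 405 and 1286 in unsorted ESC. Day 7 Bnip3 signal was 194 and 197 in Stella-negative and 198, 240.0, 128 and 63.4 in Stella-positive cells. Bnip3 fell, with log2 changes of -2.87 ± 0.49 and -3.51 ± 0.46 with no overlap. Ankrd37, an ankyrin repeat protein induced by hypoxia, had 368, 424 and 166 in Stella-negative, 512 and 288 in Stella-positive and 42.0 and 70.8 in unsorted ESC. Day 7 Ankrd37 signal was 36.0 and 14.8 in Stella-negative and 23.9, 43.9, 26.2 and 3.48 in Stella-positive cells. It fell by 3.16 ± 0.51, adjusted p = 2.10e-04, and fell by 3.66 ± 0.48, adjusted p = 2.04e-04 (limma), and one day 7 value lay above the lowest unsorted ESC value.

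The oxygen sensors of the Egln family were lower where they were called. Egln3, which is itself HIF-induced, had 399, 640.2 and 172 in Stella-negative, 417 and 417 in Stella-positive and 72.3 and 104 in unsorted ESC. Day 7 Egln3 signal was 95.4 and 64.6 in Stella-negative and 32.2, 58.6, 9.56 and 76.3 in Stella-positive cells. It fell, with log2 changes of -2.03 ± 0.52 and -3.16 ± 0.50, and the unsorted ESC arrays overlapped with day 7. Egln1, the main hydroxylase of HIF-1 alpha, had 199, 285 and 139 in Stella-negative, 151 and 171 in Stella-positive and 75.1 and 71.0 in unsorted ESC. Day 7 Egln1 signal was 112 and 172 in Stella-negative and 80.5, 68.3, 91.6 and 25.7 in Stella-positive cells, and it was called in positive cells (-1.25 ± 0.37, adjusted p = 0.029, limma) while the change in negative cells was -0.49 ± 0.39. Hif1a encodes the alpha subunit itself and is regulated mainly at the protein level. Hif1a signal was 295, 366 and 686 in Stella-negative, 486 and 478 in Stella-positive and 1147 and 823 in unsorted ESC. Day 7 Hif1a signal was 879 and 861 in Stella-negative and 996, 819, 974 and 456 in Stella-positive cells. It rose by 1.03 ± 0.33 in negative cells, adjusted p = 0.0241 (limma), with wide overlap with unsorted ESC.

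Among the secretory and stress genes, Ndrg1, a stress gene of the NDRG family, had 336, 264 and 95.4 in Stella-negative, 178 and 173 in Stella-positive and 119 and 68.4 in unsorted ESC. Day 7 Ndrg1 signal was 54.0 and 55.7 in Stella-negative and 51.3, 63.1, 70.1 and 26.5 in Stella-positive cells, and it fell, with log2 changes of -1.72 ± 0.43 and -1.62 ± 0.41. Ero1a, the oxidase that drives disulfide formation in the endoplasmic reticulum, had 1413, 963 and 536 in Stella-negative, 982 and 894 in Stella-positive and 595 and 483 in unsorted ESC. Day 7 Ero1a signal was 553 and 591 in Stella-negative and 364, 328, 318 and 203 in Stella-positive cells. It was called in positive cells, -1.62 ± 0.29, adjusted p = 0.00185 (limma), and its change in negative cells was -0.65 ± 0.31. Both changes are on the brightest probe set, and the dimmer Ero1a probe sets were called lower in both fractions. P4ha1, a collagen prolyl hydroxylase subunit, changed by -1.35 ± 0.36 in negative cells, adjusted p = 0.00887 (limma), with 204 to 596 in Stella-negative ESC and 117 to 184 at day 7. The other 5 genes were not called in either fraction: P4ha2 of the same enzyme, the angiogenic factor Vegfa, the mTORC1 inhibitor Ddit4, the carbonic anhydrase Car9 and the MYC antagonist Mxi1. Their log2 changes lay between -1.09 ± 0.51 for Ddit4 and 1.44 ± 0.55 for Vegfa, both in negative cells.

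**Figure D2:**
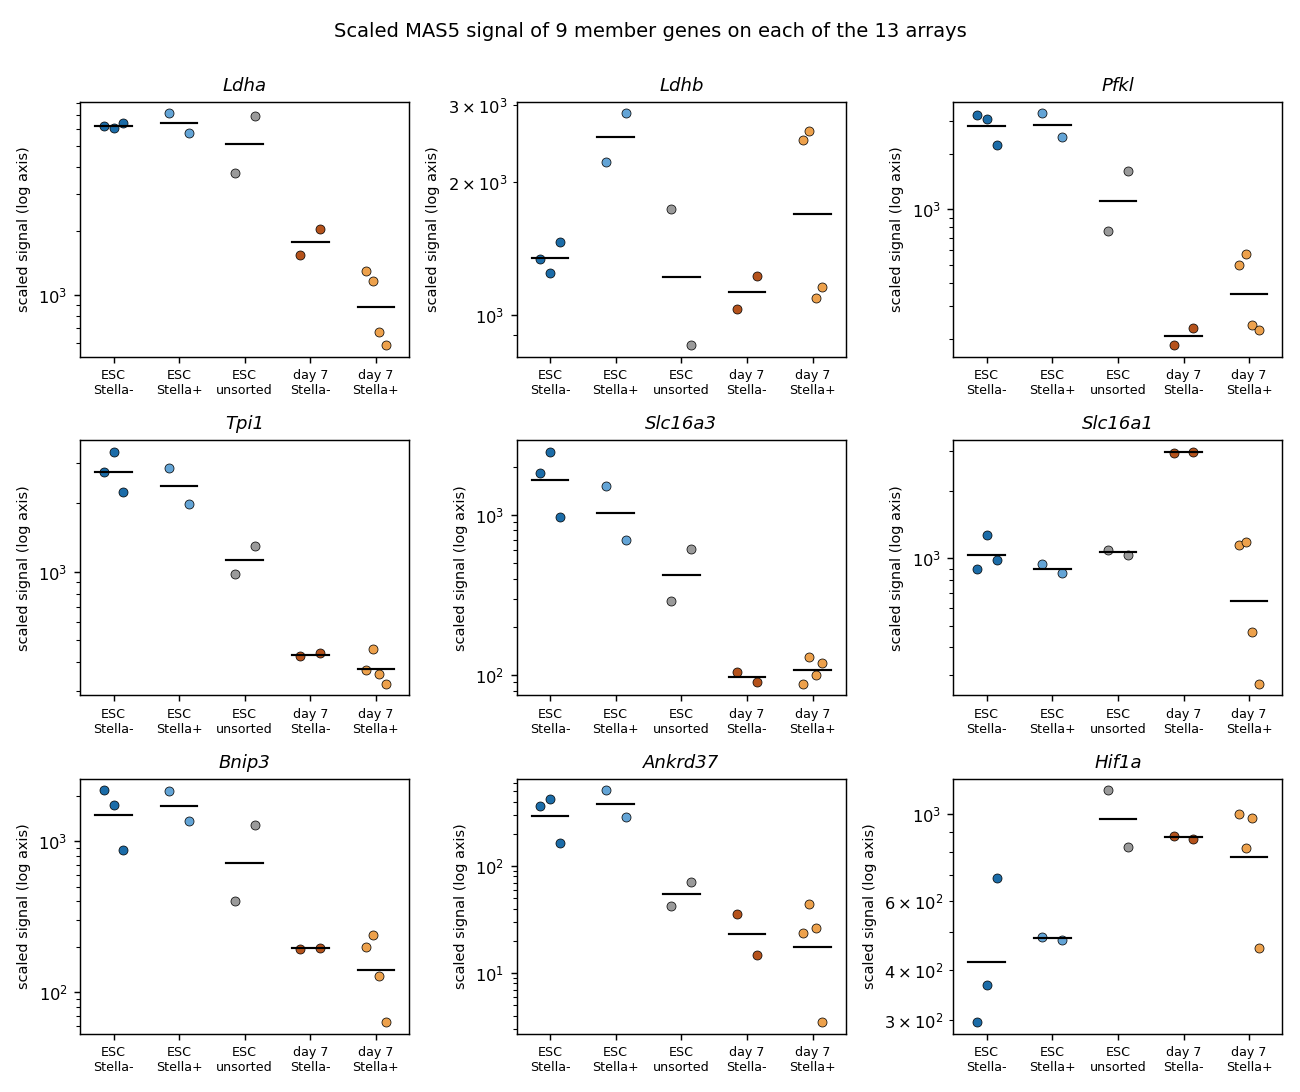
Scaled signal on every array, on a log axis, for 9 genes in the 5 groups, with a bar at each group's geometric mean. Ldha, Pfkl, Tpi1, Slc16a3 and Bnip3 are lower on all day 7 arrays than on all ESC arrays, Ldhb and Ankrd37 overlap, and Slc16a1 is highest in Stella-negative day 7 cells at 2959 and 2991.

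The fall differed between probe sets of the same gene. Of the 73 probe sets, 42 were called lower and 5 higher in negative cells, and 43 lower and 1 higher in positive cells. Over all 30023 probe sets the shares were 15% lower and 18.5% higher, and 7.42% lower and 8.35% higher. Slc2a3 was read by 4 probe sets: in negative cells the 2 brighter changed by 1.21 ± 0.19 and 0.99 ± 0.21 and the others by -2.72 ± 0.44 and -2.52 ± 0.52, all called by limma, so this gene has no settled direction. Hif1a was likewise called in both directions in both fractions, at 1.32 ± 0.27 and -2.21 ± 0.49 in negative cells and 1.10 ± 0.26 and -1.80 ± 0.47 in positive cells. With all probe sets of a gene averaged, the changes in negative cells became -0.76 for Slc2a3 (adjusted p = 0.0418) and -0.09 for Hif1a (adjusted p = 0.797).

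For several genes left uncalled above in either fraction, dimmer probe sets were called lower. Pgk1 gave 0.27 ± 0.21 on the brightest probe set and -1.43 ± 0.22 and -1.68 ± 0.25 on the others in negative cells. Slc2a1 gave -1.60 ± 0.28 and -2.07 ± 0.32 on its dimmer probe sets, and Mxi1 gave -2.43 ± 0.31 on one of 2. Ero1a gave -1.47 ± 0.38 and -1.42 ± 0.53 on its dimmer probe sets in negative cells. In positive cells a dimmer P4ha1 probe set gave -1.50 ± 0.39 and a dimmer Pdk1 probe set -1.05 ± 0.26, both called lower. Aldoa was lower on 4 of 5 probe sets, with the fifth at 0.10 ± 0.19. The Gapdh control probe sets also differed along 1 transcript. In Stella-negative day 7 cells the 3′ set read 5997 and 6756, inside its range of 5626 to 9581 in ESC, while the 5′ set read 1978 and 2127 against 6842 to 11661 in ESC. In Stella-positive day 7 cells the 3′ set read 9808, 10741, 14823 and 13590.5, all above that range, and the 5′ set read 7452, 8765, 8998 and 6512, of which the last lay below its ESC range. The position of each member's probe sets along its transcript was not analysed here. The Gapdh ratio was not used in any fit, and the fit with the actin ratio is the one given above.

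**Figure D3:**
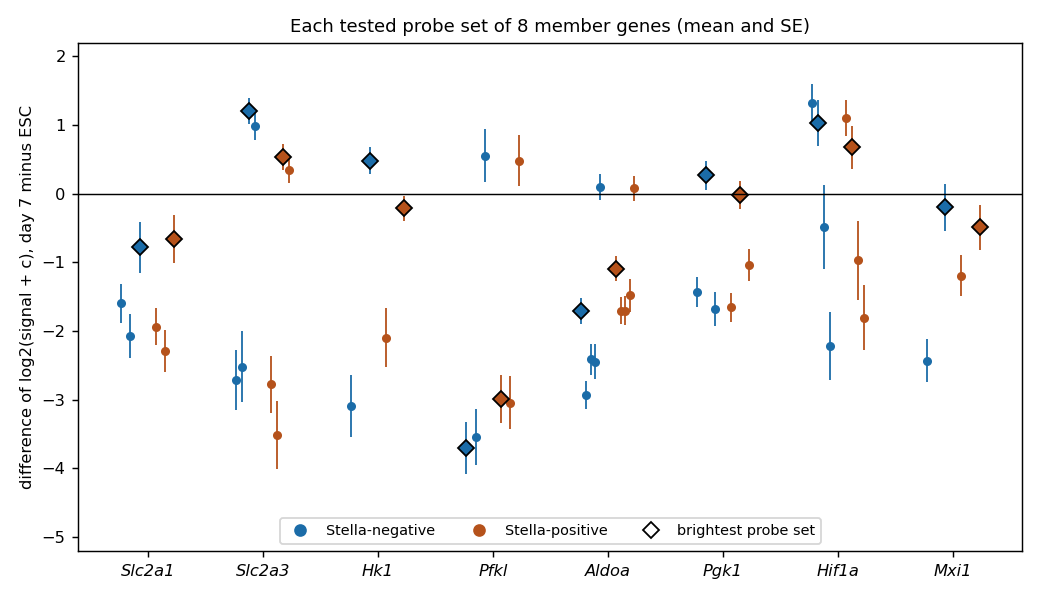
Log2 change at day 7 relative to ESC for every probe set of 8 genes, by fraction, with standard errors as bars. Slc2a3 and Hif1a have probe sets on both sides of zero, and for Pgk1, Hk1, Slc2a1 and Mxi1 the brightest probe set lies nearer to zero than the dimmer ones.

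The promoters of 6 genes are shown because they hold the letters to which HIF-1 is known to bind and because the pairs among them moved unequally: Ldha and Ldhb, Slc16a3 and Slc16a1, with Bnip3 and Ankrd37 as hypoxia genes that fell. Each runs 5′ to 3′ on the gene's strand from 250 bases before to 50 after the start, from RefSeq on GRCm38.p6. Capitals mark ACGTG or GCGTG on either strand, so that CACGT and CACGC are their reverse forms, and ACGTG can lie inside the E-box CACGTG. The windows are chr7:46845554-46845853 (plus strand), chr6:142507908-142508207 (minus), chr11:120948817-120949116 (plus), chr3:104638414-104638713 (plus), chr7:138909457-138909756 (minus) and chr8:45999801-46000100 (minus).
Ldha: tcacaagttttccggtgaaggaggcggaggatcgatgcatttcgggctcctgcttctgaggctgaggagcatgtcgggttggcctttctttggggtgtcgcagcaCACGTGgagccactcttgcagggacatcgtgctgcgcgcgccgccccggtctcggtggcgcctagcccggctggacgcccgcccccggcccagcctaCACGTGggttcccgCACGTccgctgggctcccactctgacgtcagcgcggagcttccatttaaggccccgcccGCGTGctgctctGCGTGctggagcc
Ldhb: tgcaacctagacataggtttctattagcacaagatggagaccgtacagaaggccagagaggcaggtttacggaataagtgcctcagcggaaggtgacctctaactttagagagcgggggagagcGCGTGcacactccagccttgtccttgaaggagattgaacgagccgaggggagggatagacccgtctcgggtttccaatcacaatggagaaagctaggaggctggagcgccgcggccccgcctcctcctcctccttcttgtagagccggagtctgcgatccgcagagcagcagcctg
Slc16a3: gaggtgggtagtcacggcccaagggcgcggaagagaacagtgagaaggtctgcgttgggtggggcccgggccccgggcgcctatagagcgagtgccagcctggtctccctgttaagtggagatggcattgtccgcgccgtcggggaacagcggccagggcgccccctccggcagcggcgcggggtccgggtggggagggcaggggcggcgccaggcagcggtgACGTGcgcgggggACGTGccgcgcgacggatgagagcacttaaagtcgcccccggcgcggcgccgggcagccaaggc
Slc16a1: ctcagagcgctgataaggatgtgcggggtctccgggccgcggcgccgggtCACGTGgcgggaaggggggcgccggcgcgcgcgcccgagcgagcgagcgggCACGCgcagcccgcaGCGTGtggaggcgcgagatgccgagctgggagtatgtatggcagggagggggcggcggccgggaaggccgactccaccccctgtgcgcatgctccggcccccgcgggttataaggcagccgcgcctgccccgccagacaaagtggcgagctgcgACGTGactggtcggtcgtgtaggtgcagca
Bnip3: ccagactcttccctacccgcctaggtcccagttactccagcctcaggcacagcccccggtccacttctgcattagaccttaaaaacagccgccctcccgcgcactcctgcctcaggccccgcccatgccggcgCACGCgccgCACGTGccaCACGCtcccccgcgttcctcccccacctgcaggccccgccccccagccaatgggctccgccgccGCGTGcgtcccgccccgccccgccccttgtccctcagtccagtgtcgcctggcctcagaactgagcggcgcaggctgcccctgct
Ankrd37: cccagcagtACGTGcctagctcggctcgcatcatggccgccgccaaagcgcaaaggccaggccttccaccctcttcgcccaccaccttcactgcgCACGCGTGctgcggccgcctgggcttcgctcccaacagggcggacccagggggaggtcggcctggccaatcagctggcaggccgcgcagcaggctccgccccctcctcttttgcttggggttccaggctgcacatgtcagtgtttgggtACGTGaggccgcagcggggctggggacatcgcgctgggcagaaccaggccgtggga
The Ldha window held 5 separate stretches of these letters and the Ldhb window 1. A second promoter listed for Ldha, chr7:46846832-46847131 and not shown, held 2. The exporter Slc16a3, which fell, held 2 and Slc16a1 held 4, so the count did not follow the direction in that pair. Bnip3 held 4 and Ankrd37 held 3. Among the other genes lower in both fractions with a single listed promoter, Tpi1 held 0, Pfkl 1, Egln3 1, Hk2 2, Pgam1 3 and Pfkp 4. The promoters listed for Aldoa held 0, 1 and 1, those for Aldoc 3 and 1 and those for Pkm 0 and 2. A link between these letters and the falls was not tested. Over all 51 promoters listed for 35 of the 38 genes, 80.4% held either motif and 56.9% held at least 2 stretches. Among 32851 promoters of all genes 43.8% held either motif and 17.2% at least 2 stretches, and base composition was not matched. For the 13 of 14 genes lower in both fractions that had an entry, 83.3% of 18 promoters held one, and for the other listed glycolysis and hypoxia genes 67.1% of 79. A match is a description of the letters and not a bound site.

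Isoenzymes and closely related genes changed unequally. The log2 ratio of 2 probe sets was taken within each array and compared between 6 day 7 and 7 ESC arrays with a two-sided exact permutation test. All 10 measurable pairs of 12 listed passed after adjustment over the 10. The share of pairs of other genes that would pass was not tested, so the count does not set these pairs apart. The smallest p that this design allows is 0.00117. A ratio shows unequal change only, and it carries the same confounding of culture with hybridisation day and with the 3′/5′ signal ratio. It also depends on which probe set stands for each gene, here the brightest.

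The Ldhb to Ldha log2 ratio was 0.41 ± 0.84 (SD, n = 6) at day 7 against -1.92 ± 0.71 (SD, n = 7) in ESC, a shift of 2.33 towards Ldhb (exact p = 0.00117, adjusted over the 10 pairs 0.00233). Its values ran from -0.74 to 1.16 at day 7 and from -3.01 to -1.01 in ESC, without overlap. Stella-positive day 7 cells had a mean of 0.94 and Stella-negative ones of -0.66. The Slc16a3 to Slc16a1 ratio was -3.25 ± 1.46 (SD, n = 6) at day 7 against -0.04 ± 1.05 (SD, n = 7) in ESC, a shift of -3.20 (exact p = 0.00233, adjusted over the 10 pairs 0.00388). It was -4.79 on average in Stella-negative and -2.47 in Stella-positive day 7 cells.

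Phosphofructokinase moved away from the liver isoform on the brightest probe sets. The Pfkm to Pfkl ratio was -0.19 ± 0.65 (SD, n = 6) at day 7 against -3.27 ± 0.66 (SD, n = 7) in ESC (exact p = 0.00117, adjusted over the 10 pairs 0.00233). The Pfkp to Pfkl ratio was 0.82 ± 0.27 (SD, n = 6) at day 7 against -1.32 ± 0.30 (SD, n = 7) in ESC (exact p = 0.00117, adjusted over the 10 pairs 0.00233). On the brightest probe sets hexokinase moved from Hk2 towards Hk1. The ratio was -0.10 ± 0.26 (SD, n = 6) at day 7 against 1.67 ± 0.45 (SD, n = 7) in ESC (exact p = 0.00117, adjusted over the 10 pairs 0.00233). Smaller shifts were found for Aldoc over Aldoa (-0.74), Egln3 over Egln1 (-1.42), Pfkfb4 over Pfkfb3 (0.97), P4ha2 over P4ha1 (0.80) and Slc2a3 over Slc2a1 (1.43). With the mean over all probe sets of each gene 7 of the 10 passed. Those that did not were Slc2a3 over Slc2a1 (shift 0.35, adjusted exact p = 0.345), Pfkp over Pfkl (0.29, adjusted exact p = 0.135) and Egln3 over Egln1 (-0.89, adjusted exact p = 0.0524). The Hk2 to Hk1 shift shrank from -1.77 to -0.72. The dimmer Hk1 probe set changed by -3.09 in negative and -2.10 in positive cells, where Hk2 changed by -1.45 and -1.93.

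**Figure D4:**
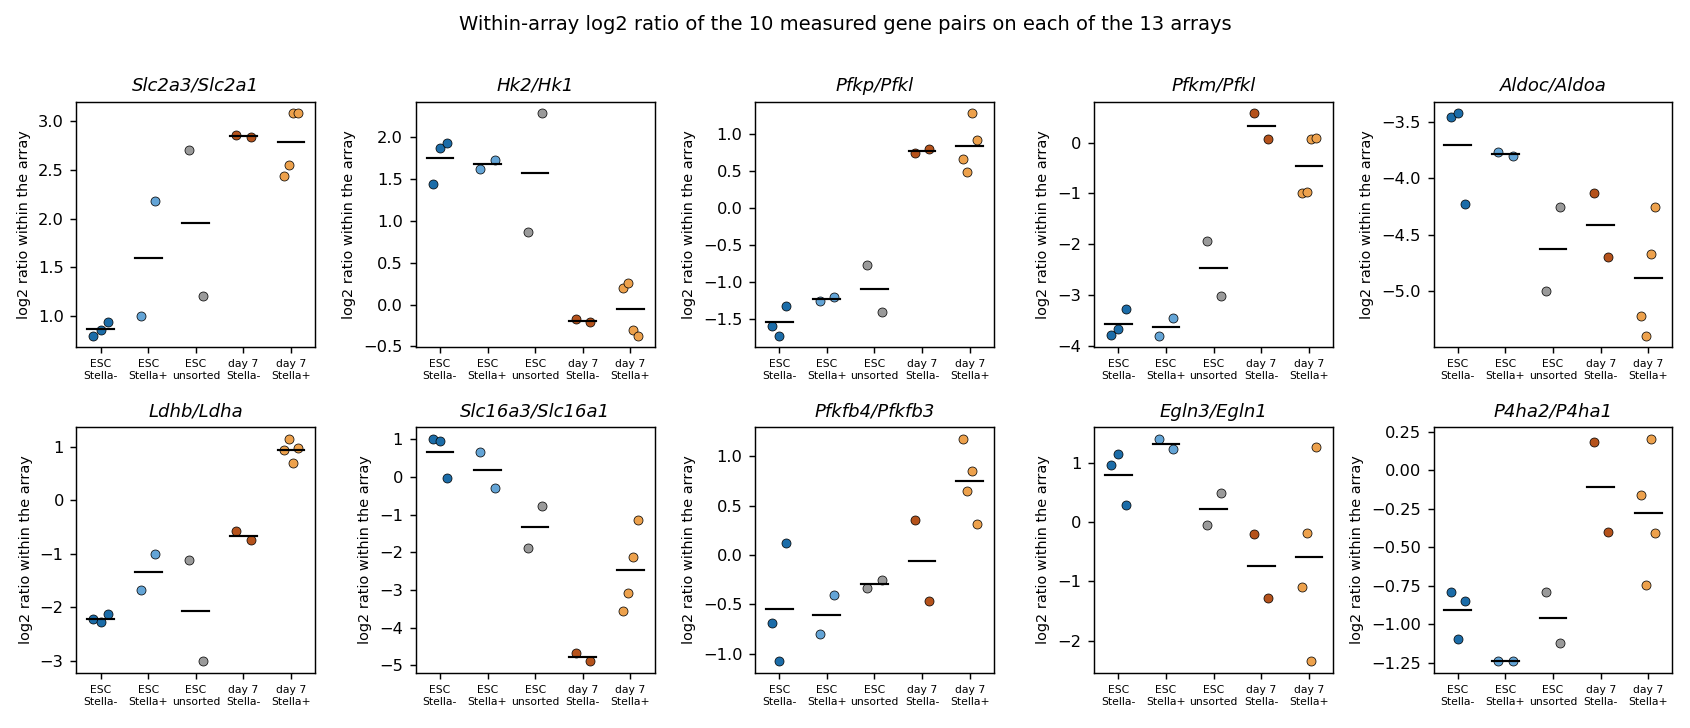
Log2 ratio of 2 probe sets within each array for 10 pairs, with 1 point per array in the 5 groups. The Ldhb/Ldha, Pfkm/Pfkl, Pfkp/Pfkl, Hk2/Hk1 and P4ha2/P4ha1 ratios do not overlap between day 7 and ESC arrays.

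The second question was how the sorted fractions differed at day 7. Stella-positive cells had higher signal of Pfkp, Aldoa, Pgam1, Pkm and Pdk1 and lower signal of Slc16a1, Pfkfb3, Ldha and Ero1a, each on its brightest probe set. Of the 34 genes 5 were higher and 4 lower in positive than in negative cells, beside 19.3% of all genes tested (10.2% higher and 9.07% lower). The higher genes were Pdk1 (0.85 ± 0.26, adjusted p = 0.0332), Pfkp (0.81 ± 0.24, adjusted p = 0.0309), Pkm (0.75 ± 0.16, adjusted p = 0.00543), Pgam1 (0.70 ± 0.22, adjusted p = 0.041) and Aldoa (0.67 ± 0.18, adjusted p = 0.0197), all by limma. In linear terms Pkm averaged 2534 ± 146 (SD, n = 4) against 1511 ± 235 (SD, n = 2), and all 4 positive arrays exceeded both negative ones. The same order without overlap held for Aldoa, Pfkp, Pgam1 and Pdk1.

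The lower genes were Slc16a1 (-2.18 ± 0.41, adjusted p = 0.00208), Pfkfb3 (-1.41 ± 0.41, adjusted p = 0.0268), Ldha (-1.01 ± 0.30, adjusted p = 0.0288) and Ero1a (-0.92 ± 0.29, adjusted p = 0.0418). Slc16a1 averaged 2975 ± 22.7 (SD, n = 2) in negative and 769 ± 465 (SD, n = 4) in positive cells, with positive arrays 1 and 2 above arrays 3 and 4. Ldha averaged 1797 ± 353 (SD, n = 2) against 933 ± 358 (SD, n = 4). The 4 positive arrays lay below both negative arrays for each of these 4 genes. Egln1 (-1.06 ± 0.37, adjusted p = 0.0592) and Vegfa (-1.24 ± 0.52, adjusted p = 0.111) were also lower on average and were not called.

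Negative day 7 array 2 and positive arrays 1 to 3 shared a hybridisation run. With run as a block every one of the 9 differences kept its sign and Slc16a1 alone was called, at -1.78 (adjusted p = 0.0296). The others were 0.61 for Pkm, 0.65 for Aldoa, 0.82 for Pfkp, 0.77 for Pgam1, 1.06 for Pdk1, -1.01 for Ldha, -1.67 for Pfkfb3 and -0.79 for Ero1a. Without negative array 1 the call was also left for Slc16a1 alone, and without negative array 2 for Slc16a1 and Pkm. With the actin ratio as a covariate 1 gene was higher, Pkm, and 7 were lower, Ldha, Slc16a1, Ero1a, Slc2a3, Egln1, Vegfa and Mxi1. Without positive arrays 3 and 4, 7 of the 9 kept the call, Ldha and Ero1a did not, and Pfkl and Ldhb were also called higher. Scaling to a common median left 3 higher and 1 lower, and moved the share of all calls that were higher from 52.1% to 79.6%.

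The fractions also differed in cell types. The summed signal of 6 measured erythroid markers of 7 was 4130 and 4333 in negative against 92.7 to 372 in positive cells, and that of 5 cardiac markers 3036 and 3313 against 152 to 1141. All 9 endoderm and all 5 cardiac markers were called lower in positive cells, 3 of 5 tested erythroid markers too, and 4 of 8 germ cell markers were called higher, among them Dppa3, the gene of the sort. Ddx4 was the single germ cell marker at or below the array median on every negative array, and Alas2 the single erythroid one in both fractions. The part of these cells in the differences was not tested.

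**Figure D5:**
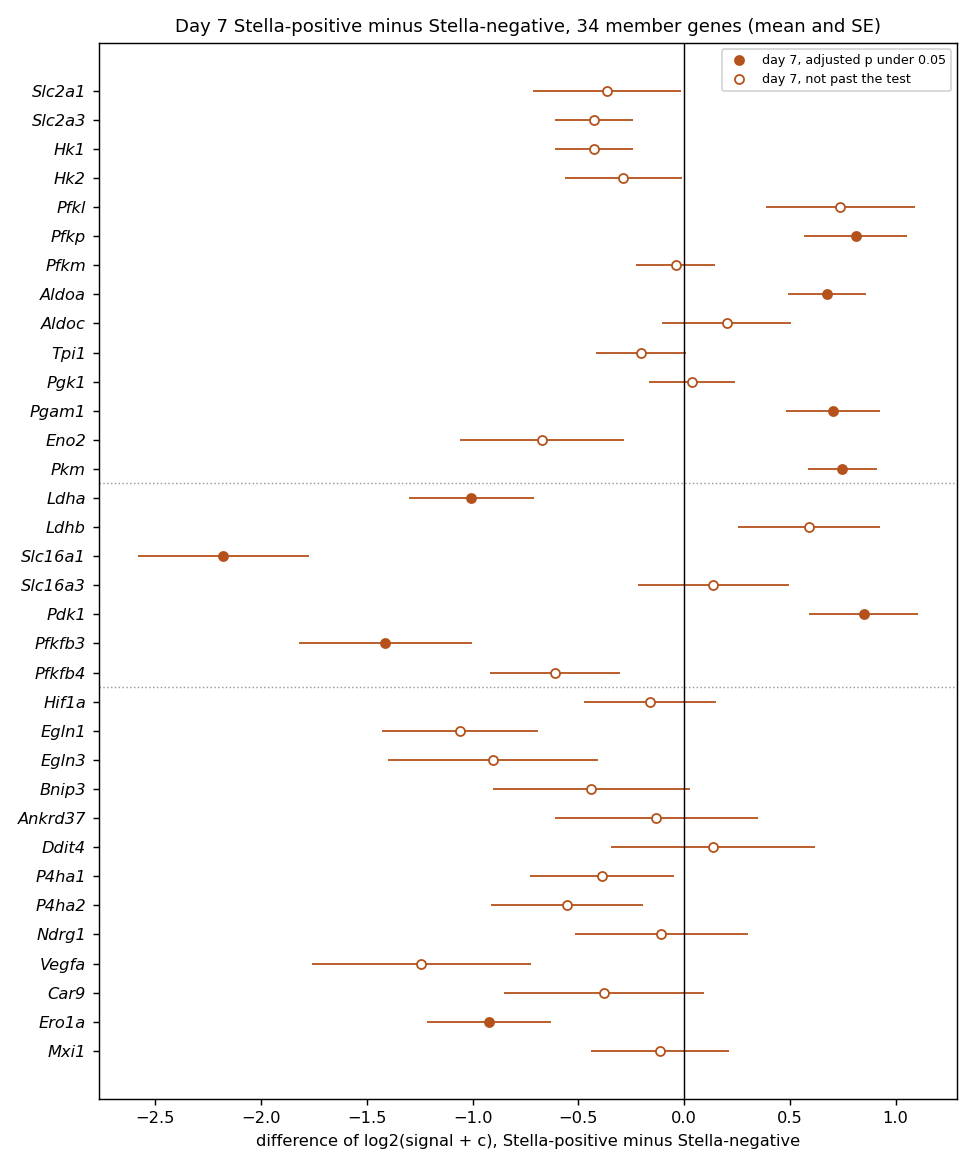
Log2 difference between Stella-positive and Stella-negative day 7 cells for the 34 genes, with standard errors as bars and called genes marked. Slc16a1 lies farthest to the left at -2.18, and Pdk1, Pfkp, Pkm, Pgam1 and Aldoa lie between 0.67 and 0.85.

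In ESC none of these genes passed the test between the sorted fractions. By limma 0 of 34 were called, and 7 of 73 probe sets had an unadjusted p under 0.05, beside 834 of 30023 overall. In all, 0.00714% of genes were called, which is 1 gene. Differences ran from -1.09 ± 0.38 for P4ha2 to 0.91 ± 0.35 for Ldhb. Ldhb was 1334, 1243 and 1461 in negative and 2228 and 2873 in positive ESC, so the groups did not overlap, and the difference was not called. The spread within the negative group was wide for hypoxia genes: array 3 was the lowest of 3 for 11 of 13 of them, or 84.6%, beside 43.7% of all genes tested. On that array Bnip3 read 877 against 2185 and 1741, Ankrd37 166 against 368 and 424, and Ddit4 623 against 2603 and 1974. In the positive group array 1 was the higher for 27 of 34 genes, or 79.4%, beside 50.5% of all genes. Positive array 2 was hybridised on another day and from another chip lot than positive array 1 and the Stella-negative ESC arrays. Spread within the positive group therefore cannot be told apart from hybridisation day.

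The difference between the day 7 sort and the ESC sort was tested as an interaction. By limma 0 of 34 genes passed, beside 0.807% of all genes, and 14 of 73 probe sets had an unadjusted p under 0.05, beside 4147 of 30023 overall. The largest was Slc16a1, -1.97 ± 0.59, adjusted p = 0.126. Genes called in a single fraction above are therefore not shown to differ between fractions. With the actin ratio as a covariate Slc16a1 and Ldha passed, and without positive day 7 arrays 3 and 4 Slc16a1 did.

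Unsorted ESC were set against the mean of both sorted ESC groups. Unsorted cells had lower signal of 7 genes, all of them also among the 14 that fell in both fractions by day 7, and higher Hif1a. The comparisons share the sorted ESC arrays, so this overlap is not independent. In all, 6.26% of genes tested were called, 3.02% lower and 3.24% higher. The lower genes were Ankrd37 (-2.42 ± 0.47, adjusted p = 0.00796), Egln3 (-2.02 ± 0.48, adjusted p = 0.022), Slc16a3 (-1.60 ± 0.35, adjusted p = 0.0141), Pfkl (-1.34 ± 0.34, adjusted p = 0.0303), Aldoc (-1.19 ± 0.29, adjusted p = 0.0256), Tpi1 (-1.18 ± 0.21, adjusted p = 0.00436) and Pfkp (-1.04 ± 0.24, adjusted p = 0.0169), by limma. Both unsorted arrays lay below all 5 sorted ones for each of the 7. Hif1a was higher by 1.09 ± 0.30, adjusted p = 0.0448, with both unsorted arrays above all sorted ones. A dimmer Hif1a probe set averaged 154 in unsorted against 85.7 in Stella-negative and 81.6 in Stella-positive ESC. Another averaged 115 against 107 and 119, and the dimmest 6.13 against 15.5 and 28.6. The Hif1a call was kept in 7 of 18 alternatives. Pkm (0.05 ± 0.16), Ldha (-0.31 ± 0.29) and Slc16a1 (0.14 ± 0.39) were not called.

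The unsorted arrays differed between themselves. Array 1 read lower for Ldha (3761 against 6932), Hk2 (491 against 1130), Pdk1 (455 against 1050) and Bnip3 (405 against 1286), and higher for Ldhb (1737 against 852), Ddit4 (684 against 381) and Vegfa (189 against 55). It was the lower of both for 19 of 34 genes, or 55.9%, beside 48.6% of all genes tested, and the higher for 9 of 13 hypoxia genes. Both formed a hybridisation run of their own, so run and sorting cannot be told apart by a fixed block, and with run as a random block Tpi1 alone was called. Without unsorted array 1 no gene was called, without Stella-positive ESC array 1 Tpi1 and Ankrd37 were, and without Stella-negative ESC array 1 or array 2 there were 5. The summed signal of 6 fibroblast markers, which could mark feeder cells, was 4020 and 937 on the unsorted arrays against 195 to 770 on sorted ESC arrays, and its part was not tested.

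Other genes of the same pathways, from lists that hold no member, are given for context. Of 31 other glycolysis and pyruvate genes tested, 9 fell and 5 rose in negative cells, and 3 fell and 0 rose in positive cells. Of 29 other hypoxia genes, 7 fell and 1 rose, and 7 fell and 0 rose. Over all genes tested 16% were lower and 18.9% higher in negative cells, and 6.8% lower and 9.02% higher in positive cells. The largest falls were those of Bsg, the chaperone of the lactate carriers (-3.17 ± 0.27 in negative and -1.87 ± 0.26 in positive cells), the stress gene Ier3 (-2.64 ± 0.32 and -2.15 ± 0.30), the repressor Bhlhe40 (-2.53 ± 0.55 and -2.89 ± 0.52) and the mitochondrial protein Fam162a (-2.18 ± 0.26 and -1.15 ± 0.24). Each was called in both fractions. Bsg fell with Pgm1 (-1.10 ± 0.31) and the pyruvate dehydrogenase kinase Pdk3 (-0.96 ± 0.24) in positive cells. In negative cells the largest rises were Hkdc1, a hexokinase domain gene (2.89 ± 0.56), Slc2a2, the liver glucose transporter (2.57 ± 0.50), Pklr, the liver pyruvate kinase (1.33 ± 0.39), and Hk3 (1.25 ± 0.40). In the day 7 sort 5 of the 31 were higher and 3 lower, where 10.2% of all genes were higher and 9.07% lower. They included the pyruvate dehydrogenase subunit Pdhb (1.22 ± 0.22), the transporter Slc2a4 (1.17 ± 0.31), Taldo1 (1.13 ± 0.17) and Bsg (0.92 ± 0.26) on the higher side, and Slc2a2 (-1.66 ± 0.48), Pklr (-1.12 ± 0.37) and Pdk4 (-1.10 ± 0.37) on the lower. Of the 29, 3 were higher, Ak4 (0.79 ± 0.23), Kdm3a (0.77 ± 0.25) and Mif (0.70 ± 0.18), and 2 lower, the collagen cross-linking enzyme Lox (-1.72 ± 0.53) and Cited2 (-0.90 ± 0.23). Between unsorted and sorted ESC 2 of the 31 were lower, Ldhc (-1.96 ± 0.53) and Tkt (-1.21 ± 0.32). Of the 29 hypoxia genes 2 were higher, Lox (2.34 ± 0.52) and Cited2 (0.97 ± 0.22), and Higd1a was lower (-0.81 ± 0.20), where 3.24% of all genes were higher and 3.02% lower.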

How the data were processed

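Per the submitters' processing notes the deposited values are MAS5 signal intensities of 45101 probe sets; its version, target intensity and scaling are not stated there. The authors' columns were scaled here to a common 2% trimmed mean, and c = 10.5 was added before log2. Control probe sets (64) were left out. Probe sets above the array median on at least 2 arrays were kept (30023). A gene is represented by its brightest probe set that is annotated to 1 symbol. limma 3.58.1 in R 4.3.3 (lmFit, eBayes with trend) fitted 5 group means over 13 arrays with no covariate, and p-values were adjusted by Benjamini-Hochberg over all probe sets. The procedure was tested on simulated data. Pairs were tested with exact permutations. Hybridisation runs came from the array files. Replicate numbers in titles and array files were the same on 1 of 12 arrays, and deviations of same-numbered arrays correlated between -0.13 and 0.07, so numbers did not pair arrays. Values on every array are given for genes called in a sort, unsorted or interaction comparison or in both cultures, and for their listed isoenzymes; the rest by range. Of the other lists up to 4 called genes per direction were eligible. Members and lists were chosen with earlier results of these data known. The number of arrays limits the precision.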

Additional observations from a re-analysis of the deposited data

Results flagged for a closer look

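The Vegfa signal of 25.4 on Stella-positive day 7 array 4 lay far below the 143, 138 and 116 of the other 3 arrays of that group. On the log2 scale with the constant added, its gap to the nearest array was 0.867 of the group's range, above Dixon's 95% critical value for 4 samples. On the linear signals given here the gap does not reach that value, so the flag depends on the log2 scale. On that scale Vegfa was the single such gene of 34 tested, and chance flags about 1 in 20. That array had the lowest unscaled trimmed mean, 8.48, and was the lowest of its group for 22 of 34 genes, or 64.7%, beside 35.6% of all genes tested. The cause was not tested.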

How the results depend on the processing

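Alternatives were other scalings, constants and filters, a fit on the compared groups alone, run and replicate blocks, an average over probe sets, the actin ratio as a covariate and arrays left out. In the day 7 sort the 9 calls became 4 with common median scaling, 5 with the compared groups alone, 5 with averaged probe sets, 1 with the run block and 1 to 8 with an array left out. In culture the 19 calls of negative cells became 9 with the actin covariate (15 to 22 with an array left out), and the 18 of positive cells became 6 (13 to 20). The interaction's 0 calls became 2 with the actin covariate, Ldha and Slc16a1, and 1 without positive day 7 arrays 3 and 4, Slc16a1, and stayed at 0 with any single array left out. The 8 calls of unsorted ESC became 14 with the replicate block, 13 without positive day 7 arrays 3 and 4, 1 with run as a random block (chosen after seeing the data) and 0 to 11 with an array left out. The ESC sort gave 0 calls under all alternatives run, and pairs past the exact test numbered 9 to 10 with an array left out. Reversed were Slc2a3, -0.76, and Hif1a, -0.086, in negative cells with averaged probe sets; no other called gene changed sign. Slc16a1 kept its day 7 sort call in 17 of 17 alternatives. The replicate block gave 9, 0, 22, 14 and 0 calls in the day 7 sort, the ESC sort, negative culture, positive culture and the interaction. A fixed run block could not be fitted for culture or unsorted ESC. Genes near background, such as Eno2, Car9, Pfkfb3 and Pfkfb4, are the least certain. The causes of these changes were not tested.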

Other observations

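Some genes followed the split of the Stella-positive day 7 arrays, a split seen in the data and not in the labels, so it was not tested. On arrays 1, 2, 3 and 4 Ldhb, the lactate dehydrogenase subunit of oxidative tissues, read 2500.3, 2623, 1093 and 1158, Ddit4, the mTORC1 inhibitor, 1284, 1209, 437 and 487, and Slc16a1, a lactate carrier, 1151, 1179, 468 and 276. Pfkl read 497, 574, 236 and 222, Pkm, in contrast, 2383, 2671, 2646 and 2435. The endoderm sums on these arrays were 8265, 8436, 590 and 657.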
